A study of Homo sapiens with 27 samples.

Results

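A set of 147 genes in the human colorectal cancer line LIM1215 was lower after repeated challenge with natural killer (NK) cells and an antibody. Once the challenge stopped, these genes stood higher than the mean of replicates 1 and 2 of the unchallenged cells. The members were chosen by their values on 8 LIM1215 arrays. The mean of the 3 Resistant arrays had to lie at least 0.5 below the mean of Parental replicates 1 and 2, the mean of the 3 Withdrawal arrays at least 0.5 above it, and the Withdrawal mean had to reach 8, all on the log2 scale of the deposited values. The 147 members make up 0.831% of the 17687 named genes on the array, and 145 of them are protein-coding. The other two, EML2-AS1 and LINC01559, are non-coding transcripts. Because these values chose the members, the LIM1215 differences below are a description with no test. The tests come from the lines SW48 and Caco2, whose arrays played no part in the choice.

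Total RNA (250 ng per array) of LIM1215, SW48 and Caco2 cells was measured on 27 arrays, with 3 arrays for each of 3 states of each line. Resistant cells were the survivors of 20 rounds in which 1000000 NK-CD16 cells, NK cells that carry the antibody receptor CD16, and 1 μg/ml of cetuximab, an antibody that binds EGFR, were added to a 10 cm dish seeded with 1000000 tumour cells. For the Withdrawal state, these survivors were carried through 20 further rounds of culture without treatment. Parental cells were the original line. Per the labels, each line was grown from a single clone, so each state of a line descends from 1 founder, and the labels do not say whether the 3 arrays of a group came from separate cultures: p-values measure only the spread between these samples. LIM1215 medium held hydrocortisone and insulin, which the media listed for SW48 and Caco2 did not.

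EGFR, once a ligand such as HBEGF or EREG binds it, signals through RAS and the kinase ERK. ERK switches on transcription factors of the ETS and AP-1 families and, with them, a set of feedback brakes such as the DUSP phosphatases and the Sprouty proteins, so that these genes report how active the pathway is. In intestinal epithelium the same pathway drives growth, migration and the release of proteases and cytokines. Cetuximab blocks ligand binding and also marks the cell for killing through CD16.

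The labelled cell type was borne out by its markers in LIM1215. The 95th percentile of the negative control probes was taken here as background. All 16 measured colorectal epithelial markers read above it in the 3 LIM1215 states, against 8 to 9 in SW48 and 11 in Caco2. Of all genes, 50% were above background in at least 1 state of SW48 and 48.3% in at least 1 state of Caco2. The marker count in SW48 was near that share, so it does not bear out the label there. The marker counts were not tested against these shares. Most NK and T cell markers were higher in the Resistant state. Of 26 measured, 15 were above background in Resistant LIM1215 arrays, 1 in Withdrawal and 1 in Parental arrays, and their summed value was 201.17 to 210.53 on Resistant, 109.37 to 111.59 on Withdrawal and 106.13 to 113.55 on Parental arrays. In Resistant SW48 arrays 5 were above background and in Resistant Caco2 arrays 13, against 1 in every other state of both lines. No marker was at 0 on any array, and the part of NK cell RNA in the Resistant differences was not tested. In these bulk cultures, fewer cells that express a gene and less RNA per cell cannot be told apart. LIM1215 Parental replicate 3 stood apart from its group: across the named genes, which are no independent replicates, Pearson's r was 0.98709 and 0.98721 with Parental replicates 1 and 2, against 0.99465 to 0.99682 for the other 25 pairs of replicates, and 0.99169 to 0.99225 with the 3 Withdrawal arrays. The choice of members left this array out. With it in the Parental mean, 231 genes would have met the criteria, 128 of them among the 147.

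The members varied widely in size. The Resistant mean lay below Parental replicates 1 and 2 by a median of 0.92, with differences of -3.46 (ANKRD22, an ankyrin-repeat protein) to -0.51 (IER3, an early ERK target that limits cell death). The Withdrawal mean lay above them by a median of 1.14, from 0.51 (ANKRD22) to 7.92 (IGFBP1, a secreted binder of insulin-like growth factors). Over all genes these medians were -0.04 and 0.00. All 147 members were above background in Withdrawal cells, against 97 in Resistant and 137 in Parental cells (means of 3 arrays). The count of 147 was fixed by the minimum level of 8, since background in Withdrawal LIM1215 cells was 7.47. That the Resistant count was the lowest also follows the order the choice required. Of the 25 members with the largest difference between Withdrawal and Resistant cells, 18 were at background in Resistant cells, ANKRD22 among them, so their falls below Parental cells are differences of deposited values, and for 10 of the 25 the mean of Parental replicates 1 and 2 was at background too. Of the other members named below, those at background in Resistant LIM1215 cells included SPRY4, ITGB6, RAET1L, PLK3 and ACSL1. The same held for CASP5, TLR5, LTO1, ZNF699, CLBA1, CLIP4 and LARP6, each near a threshold. Both differences reached 1 for 46 members. For 144 of the 147, every Resistant array lay below and every Withdrawal array above both Parental arrays, a pattern that 4.28% of all genes showed. Since the choice used these values, nothing is read from that share. The criteria sit in a continuous range: 10.1% of genes were at least 0.5 lower in Resistant cells, 14.7% at least 0.5 higher in Withdrawal cells and 1.11% both, before the minimum level, which 49.6% of genes reached, was applied. The members nearest the threshold on the fall were IER3, LYST, CASP5, SEC24D and TLR5 (-0.51 to -0.52), and the nearest non-members were FRAS1, BCL10, AGPAT4, PLD1 and RGS2 (-0.49 to -0.47). On the rise the nearest members were ANKRD22, DUSP4, LTO1, ADGRE5 and SNX9 (0.51 to 0.55), and the nearest non-members SH3KBP1, NUDT4, RIN1, CPLANE2 and INPP1 (0.49 to 0.46). On the level, ZNF699, PLK3, CLBA1, CLIP4 and LARP6 were just inside (8.005 to 8.24), and SLC5A1, SLC16A4, SPRR2A, EPHA4 and CRYBG2 just outside (7.94 to 7.81).

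IGFBP1 had the largest difference between Withdrawal and Resistant cells. It read 5.32, 4.21 and 5.30 on Resistant, 14.25, 14.18 and 14.23 on Withdrawal, 6.16 and 6.45 on the first and second Parental array and 12.12 on the third. Its Resistant and its first 2 Parental values lay below background, so only bounds can be given: it was at least 88.9-fold higher in Withdrawal than in Resistant cells and at least 108-fold higher than on Parental replicates 1 and 2. Such bounds set the dim group, array by array, at the higher of background and the gene's own value. The neighbouring gene on chromosome 7, IGFBP3, a binder of the same growth factors, read 11.26, 10.88 and 11.30 on Resistant, 14.59, 14.61 and 14.68 on Withdrawal and 12.50, 12.52 and 12.51 on Parental arrays. Here the third Parental array stood with the other two, unlike that of IGFBP1. MMP1, the interstitial collagenase, read 4.49, 4.11 and 4.0 on Resistant, 11.44, 11.15 and 11.33 on Withdrawal and 5.17, 5.06 and 8.07 on Parental arrays, with the Resistant group and the first 2 Parental arrays below background. It was at least 11.8-fold higher in Withdrawal than in Resistant cells. PLAUR, the urokinase receptor that focuses matrix proteolysis at the cell surface, read 7.56, 7.15 and 7.71 on Resistant, 12.33, 12.49 and 12.32 on Withdrawal and 9.33, 9.27 and 12.44 on Parental arrays. Its Resistant mean lay below background, and it was at least 22.5-fold higher in Withdrawal cells. SERPINE2, an inhibitor of urokinase and thrombin, read 9.33, 9.63 and 10.10 on Resistant, 14.67, 14.54 and 14.61 on Withdrawal and 12.46, 12.39 and 14 on Parental arrays. The groups do not overlap for either gene when the third Parental array is set aside, as for nearly all members, since the choice used these values. PRSS2, a trypsinogen, differed by -2.89 (Resistant) and 1.82 (Withdrawal) from Parental replicates 1 and 2. Its near-identical relatives, PRSS3 among the members, may share its probes, and the same holds for SPRR2D, IGFL2, APOBEC3B and the pair ULBP2 and RAET1L.

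Of 12 measured genes on a list of EGFR-family receptors, their ligands and regulators, 3 were members: HBEGF, EREG and ERRFI1. HBEGF, a membrane-bound EGFR ligand, read 8.21, 7.76 and 7.49 on Resistant, 13.11, 12.72 and 12.85 on Withdrawal and 8.66, 8.70 and 12.31 on Parental arrays, 33.7-fold higher in Withdrawal than in Resistant cells. EREG, epiregulin, read 12.29, 12.39 and 12.40 on Resistant, 15.55, 15.51 and 15.63 on Withdrawal and 13.34, 13.45 and 15.40 on Parental arrays. ERRFI1, a cytoplasmic inhibitor of the EGFR kinase, read 13.73, 13.46 and 13.52 on Resistant, 16.43, 16.30 and 16.41 on Withdrawal and 15.12, 15.15 and 16.16 on Parental arrays. That these 3 share an order was fixed by the choice. EGFR itself is no member, with differences of -0.14 and 0.14 from Parental replicates 1 and 2. TGFA, another ligand, was lower in Resistant cells (-0.96) but stood at 0.17 after withdrawal.

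Of 28 measured ERK feedback and AP-1 genes, 8 were members: ETV5, ETV4, PHLDA1, DUSP4, DUSP6, SPRY4, EPHA2 and IER3. Over the 28 the median difference from Parental replicates 1 and 2 was -0.42 in Resistant and 0.87 in Withdrawal cells, against -0.04 and 0.00 over all genes. At least 0.5 lower in the Resistant state were 12 of the 28 (against 10.1% of all genes), and 20 were at least 0.5 higher in the Withdrawal state (against 14.7%). The 8 members are in both counts by the choice, and the list was not tested in LIM1215. ETV5, an ETS transcription factor, read 6.55, 6.66 and 6.08 on Resistant arrays, below background, 11.63, 11.56 and 11.82 on Withdrawal and 7.66, 7.85 and 10.47 on Parental arrays. PHLDA1, which restrains growth factor receptor signalling, read 10.09, 9.86 and 9.81 on Resistant, 14.17, 14.29 and 14.37 on Withdrawal and 12.82, 12.85 and 13.69 on Parental arrays. DUSP6, the phosphatase of ERK, read 11.37, 11.32 and 11.40 on Resistant, 14.08, 13.99 and 14.12 on Withdrawal and 13.14, 13.10 and 14.26 on Parental arrays. Every Resistant array was the lowest and, with the third Parental array set aside, every Withdrawal array the highest for these 3 genes. The choice used these values, so nothing is read from that order. DUSP4 (-2.60 and 0.51), ETV4 (-1.55 and 0.56), SPRY4 (-1.35 and 1.47), EPHA2 (-0.85 and 1.56) and IER3 (-0.51 and 0.71) completed the list's members, given as the Resistant and the Withdrawal difference from Parental replicates 1 and 2. Other genes of the list ran in the same order but missed a threshold or the level, among them DUSP5 (-0.41 and 3.51), SPRY1 (-0.46 and 0.64), SPRED1 (-0.82 and 0.41) and SPRED2 (-0.43 and 0.53), while others did not. The AP-1 subunits JUN (1.01 and 1.61), JUNB (0.94 and 1.63) and FOSB (0.85 and 3.85) were higher in both states, FOSL1 was lower in Resistant cells and near the Parental level after withdrawal (-2.66 and -0.08), and MYC differed little in either (0.11 and 0.09).

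**Figure D1:**
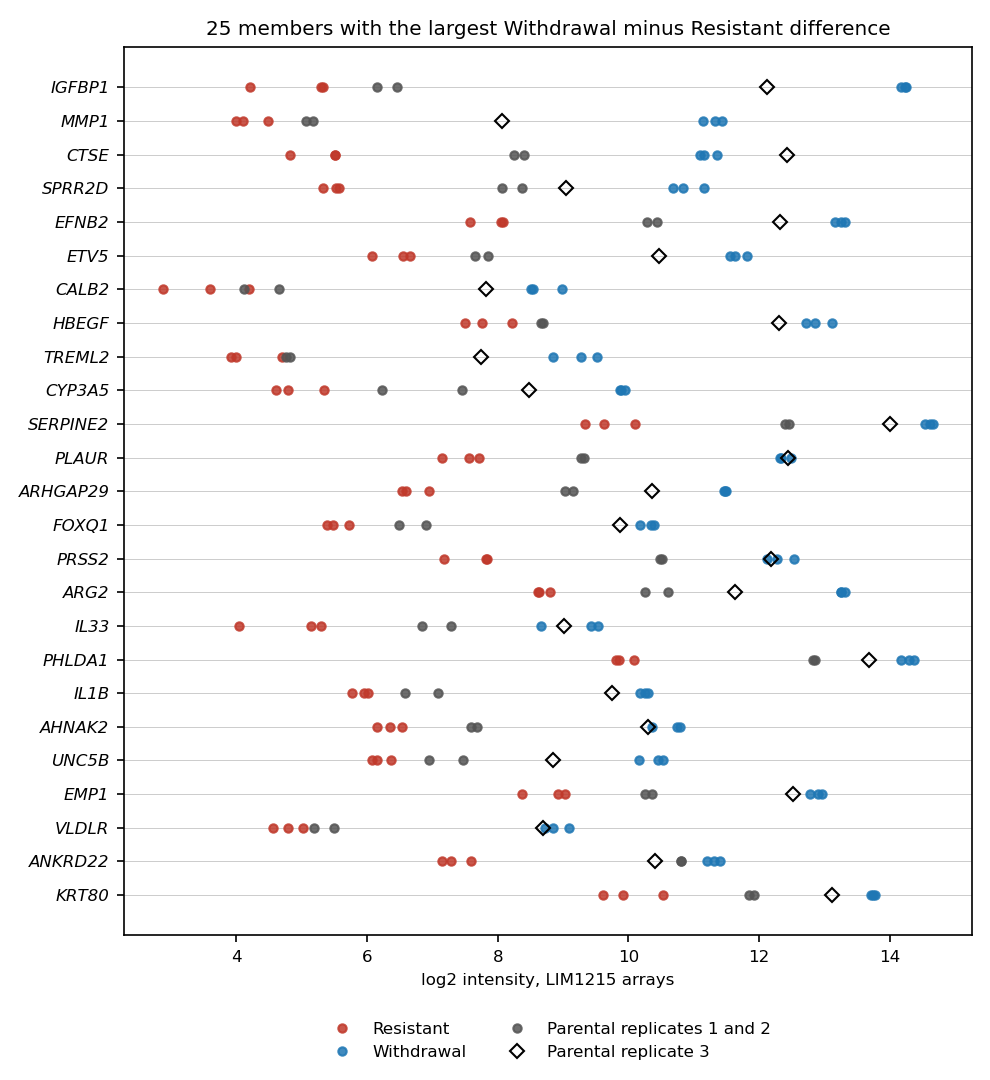
log2 intensity (x axis) of the 25 members with the largest Withdrawal minus Resistant difference (y axis) on each LIM1215 array. Red points are the 3 Resistant, blue points the 3 Withdrawal and grey points the first 2 Parental arrays, and the open diamond is Parental replicate 3. IGFBP1 spans the widest range, from 4.21 on a Resistant to 14.25 on a Withdrawal array, and the diamond lies right of both grey points for 24 of the 25 genes.

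Other members take part in guidance, adhesion and the cytoskeleton. EFNB2, the membrane ligand of EphB receptors, read 8.05, 8.09 and 7.58 on Resistant, 13.32, 13.16 and 13.25 on Withdrawal and 10.28, 10.44 and 12.32 on Parental arrays, 40.5-fold higher in Withdrawal than in Resistant cells. UNC5B, a netrin receptor, differed by -1.01 and 3.18, EMP1, an epithelial membrane protein, by -1.54 and 2.57, and KRT80, an epithelial keratin, by -1.86 and 1.87 from Parental replicates 1 and 2 in the Resistant and Withdrawal states. TNS4, a focal adhesion protein (-2.08 and 0.55), and ITGB6, an integrin chain (-0.79 and 1.14), were the members among 17 integrin and laminin genes. AHNAK2, a scaffold protein (-1.28 and 3.00), ARHGAP29, which switches off the GTPase RHOA (-2.39 and 2.40), and CALB2, the calcium-binding protein calretinin (-0.84 and 4.29), were also among the 25 largest. For UNC5B and CALB2 the Resistant group and Parental replicates 1 and 2 lay below background, and for AHNAK2 and ARHGAP29 the Resistant group did.

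Cytokine and alarm genes included 5 members of 31 measured NF-kappaB and chemokine genes. CXCL8, the neutrophil chemokine interleukin-8, read 9.34, 9.26 and 9.07 on Resistant, 12.71, 12.70 and 12.60 on Withdrawal and 11.29, 11.42 and 12.56 on Parental arrays. IL1B, interleukin-1 beta, read 5.77, 6.02 and 5.96 on Resistant, 10.25, 10.18 and 10.30 on Withdrawal and 6.58, 7.08 and 9.75 on Parental arrays. IL33, an alarmin released by damaged epithelium, read 5.15, 4.04 and 5.29 on Resistant, 8.66, 9.43 and 9.53 on Withdrawal and 7.29, 6.84 and 9.01 on Parental arrays. Levels of IL1B and IL33 in the Resistant group and the first 2 Parental arrays were below background. IL18, an inflammasome cytokine (-0.72 and 1.18), LCN2, which withholds iron from bacteria (-0.69 and 0.80), and LIF, a cytokine of the interleukin-6 family that is on no list (-1.97 and 0.73), also belonged to the set. Over the 31 list genes the medians were 0.05 and 0.24, so the list as a whole did not show the members' order.

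Of 22 measured genes for NK receptor ligands and adhesion, 3 were members. Over the 22 the medians were -0.05 in Resistant and 0.05 in Withdrawal cells, so the list as a whole did not show the members' order. ULBP2, a ligand of the activating receptor NKG2D, read 7.84, 7.90 and 8.04 on Resistant, 11.23, 11.41 and 11.54 on Withdrawal and 9.72, 10.17 and 11.71 on Parental arrays. Its relative RAET1L, with 1 measured gene between them on chromosome 6, read 5.90, 5.89 and 5.83 on Resistant, 8.94, 8.96 and 8.97 on Withdrawal and 7.04, 7.38 and 9.08 on Parental arrays. PVR, a ligand of DNAM-1, read 12.12, 11.91 and 11.91 on Resistant, 13.56, 13.57 and 13.60 on Withdrawal and 12.42, 12.63 and 13.09 on Parental arrays. All 3 were lowest on the Resistant arrays, which follows the order the choice required. HHLA2, a B7 family ligand of lymphocyte receptors, differed by -1.23 and 0.55. Among 20 p53 targets the members were CDKN1A, which encodes the cell cycle inhibitor p21 (-0.55 and 0.72), the stress cytokine GDF15 (-0.81 and 1.10) and the kinases PLK2 (-1.20 and 1.13) and PLK3 (-0.58 and 0.72). Metabolic enzymes in the set included ARG2, the mitochondrial arginase (-1.75 and 2.83), CYP3A5, a drug-metabolising cytochrome (-1.93 and 3.06, with Resistant cells and Parental replicates 1 and 2 at background), the fatty acid activating ACSL1 (-0.58 and 2.15) and the hexokinase HK2 (-1.09 and 0.98). Lists with no member included replication and mitosis, whose 40 genes had medians of -0.22 in Resistant and -0.87 in Withdrawal cells.

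Some members lie side by side in the genome. In the order of measured genes, 5 pairs were direct neighbours: IGFBP1 and IGFBP3 on chromosome 7, ANKRD22 and STAMBPL1 on chromosome 10, EMP1 and LINC01559 on chromosome 12, AHNAK2 and CLBA1 on chromosome 14, and RASSF6 and CXCL8 on chromosome 4. ANKRD22 differed by -3.46 and 0.51. No strand was checked for these pairs. How many such pairs other gene sets of this size hold was not worked out, so nothing is read from the count.

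Of the 147 members, 112 had at least 1 promoter in the RefSeq table for GRCh38.p14, with 167 promoters in all, each running from 250 bases before to 50 after a start site. A match to TGANTCA on either strand, the motif bound by AP-1 factors (N is any base), was present in 24 of the 167 member promoters (14.4%) and in 6.23% of all 20090 promoters. By gene, 22 of the 112 members (19.6%) had a match in at least 1 promoter, against 8.19% of 14250 genes. CCGGAAG, an ETS motif, was in 5.39% of member promoters and 12.8% of all, and TATAAA, the TATA box, in 12% and 9.3%. Of the other motifs searched, TGACGTC (CRE) was in 4.19% and 4.07%, ACGTG (HRE) in 21% and 23%, CACGTG (E-box, which contains ACGTG) in 7.19% and 8.21%, CTTTGAT (TCF) in 1.8% and 2.07%, GGGCGG (SP) in 51.5% and 56.9%, CCAAT (NFY) in 34.7% and 34.7%, AGAACA (part of the glucocorticoid receptor motif) in 11.4% and 11.5%, CACCC (KLF) in 63.5% and 63.4%, and CAAAGTC (HNF4) in 4.19% and 2.98% of member promoters and of all promoters, all on both strands. These shares were not tested, and a match is not a binding site. The 250 bases before the start site are shown 5′ to 3′ for PLAUR, EMP1, ANKRD22, CXCL8 and LCN2, described above and each with a match, and for HBEGF, which has none. Capitals mark the AP-1 match.
PLAUR (chr19:43670170-43670419, minus strand): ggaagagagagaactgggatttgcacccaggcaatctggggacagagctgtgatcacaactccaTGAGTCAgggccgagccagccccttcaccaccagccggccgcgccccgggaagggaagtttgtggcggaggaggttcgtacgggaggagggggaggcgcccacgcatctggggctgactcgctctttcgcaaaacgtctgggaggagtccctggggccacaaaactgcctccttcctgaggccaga
EMP1 (chr12:13196476-13196725, plus strand): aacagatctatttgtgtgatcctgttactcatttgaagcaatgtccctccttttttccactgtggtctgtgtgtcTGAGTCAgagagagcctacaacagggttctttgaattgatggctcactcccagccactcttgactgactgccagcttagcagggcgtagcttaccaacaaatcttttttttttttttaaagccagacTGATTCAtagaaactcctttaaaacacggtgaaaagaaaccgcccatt
ANKRD22 (chr10:88851845-88852094, minus strand): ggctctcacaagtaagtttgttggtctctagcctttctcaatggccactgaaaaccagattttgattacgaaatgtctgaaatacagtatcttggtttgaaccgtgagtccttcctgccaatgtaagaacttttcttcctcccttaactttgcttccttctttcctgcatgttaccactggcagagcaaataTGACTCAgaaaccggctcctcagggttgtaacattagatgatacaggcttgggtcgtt
CXCL8 (chr4:73740319-73740568, plus strand): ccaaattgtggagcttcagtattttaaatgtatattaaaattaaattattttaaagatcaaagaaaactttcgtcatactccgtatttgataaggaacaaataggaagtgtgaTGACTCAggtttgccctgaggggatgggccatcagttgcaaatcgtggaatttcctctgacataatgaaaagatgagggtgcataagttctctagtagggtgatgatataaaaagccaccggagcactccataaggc
LCN2 (chr9:128149203-128149452, plus strand): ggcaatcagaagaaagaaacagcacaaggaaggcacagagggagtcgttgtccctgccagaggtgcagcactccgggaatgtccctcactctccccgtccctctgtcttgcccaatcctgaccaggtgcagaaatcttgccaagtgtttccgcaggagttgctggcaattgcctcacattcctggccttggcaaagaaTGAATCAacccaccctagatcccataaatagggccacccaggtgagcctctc
HBEGF (chr5:140346604-140346853, minus strand): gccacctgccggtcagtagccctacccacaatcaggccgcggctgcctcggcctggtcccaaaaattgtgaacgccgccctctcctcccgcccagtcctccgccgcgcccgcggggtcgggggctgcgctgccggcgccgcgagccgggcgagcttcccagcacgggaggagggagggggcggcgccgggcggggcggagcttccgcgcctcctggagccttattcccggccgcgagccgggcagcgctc
EMP1 holds a pair of matches, which begin 175 and 48 bases before the start site. The single match begins 186 bases before it in PLAUR, 58 in ANKRD22, 137 in CXCL8 and 52 in LCN2. CXCL8 also holds a TATA box match in this window.

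Parental replicate 3 was the only LIM1215 array that the choice of members did not use. On it 133 of the 147 members (90.5%) read above both other Parental arrays, where 38.7% of all genes did, and 8 (5.44%) read below both, against 42.3% of all genes. The members' median difference from the mean of the other two was 0.80, against -0.03 over all genes, and 105 members were at least 0.5 higher (71.4%, against 14.9%). This array exceeded every Resistant array for 146 members. For 95 members it lay above both other Parental arrays and below every Withdrawal array, and for 38 (25.9%, against 65.9% of all genes) it reached the lowest Withdrawal array. It read above all 3 Withdrawal arrays for 19 members, CTSE, an aspartic protease, among them with 12.43 on this array against 11.16, 11.35 and 11.10 on Withdrawal arrays. The mean of Parental replicates 1 and 2 enters both this difference and the choice of members, and a single array has no replicate, so these counts describe 1 array. The choice also set the members' Resistant arrays low and their Withdrawal arrays high, so nothing is read from the counts against those arrays. No share over all genes was taken for the counts of 146, 95 and 19. On the same array 37 interferon response genes, none of them members, had a median of 3.72 above the other two, and 28 ERK feedback and AP-1 genes a median of 0.77. The state of that culture is not given in the sources used here.

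**Figure D2:**
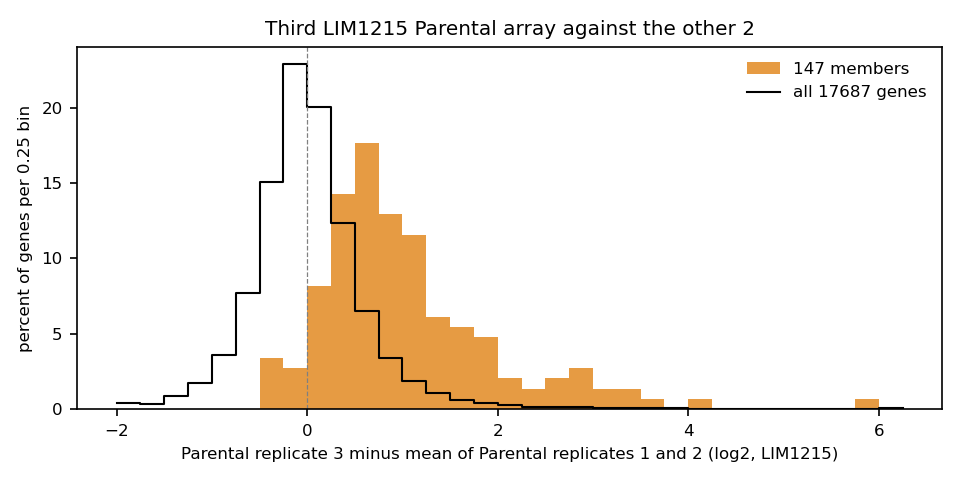
Distribution of the difference between LIM1215 Parental replicate 3 and the mean of Parental replicates 1 and 2 (x axis, log2), as the percent of genes in each bin of 0.25 (y axis), for the 147 members (orange bars) and all 17687 genes (black line). Values past the ends are counted in the end bins. The members centre on 0.80 and all genes on -0.03.

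In SW48 and Caco2, the members moved in both directions. With limma fitted to these 18 arrays and p-values adjusted over all genes (Benjamini-Hochberg, called under 0.05), 36 members fell and 34 rose in Resistant against Parental SW48 cells, which is 24.5% and 23.1% of members, while 12.1% of all genes were called lower and 11.2% higher. In Caco2, 35 fell (23.8%, against 15.1% of all genes) and 33 rose (22.4%, against 13.3%). The median change of the members was -0.08 in SW48 and -0.02 in Caco2, against 0.00 and -0.03 over all genes. Read against the 8765 genes that also met the minimum LIM1215 Withdrawal level, a background chosen after seeing the data, the shares lay nearer: 19.6% of those genes were called lower and 17.5% higher in SW48, and 21.6% and 17.2% in Caco2. Above background in at least 1 state were 102 of 147 in SW48 (69.4%, against 50% of all genes) and 77 in Caco2 (52.4%, against 48.3%), where the choice of members had required a level in LIM1215 alone. Of the calls, 22 of the 68 in Caco2 and 5 of the 70 in SW48 were on genes below background in both groups, so they are differences of deposited values that set no fold. The summed NK and T cell markers read 124.97 to 133.23 on Resistant and 78.81 to 83.25 on Parental SW48 arrays, and 183.76 to 192.83 on Resistant and 95.27 to 98.47 on Parental Caco2 arrays.

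**Figure D3:**
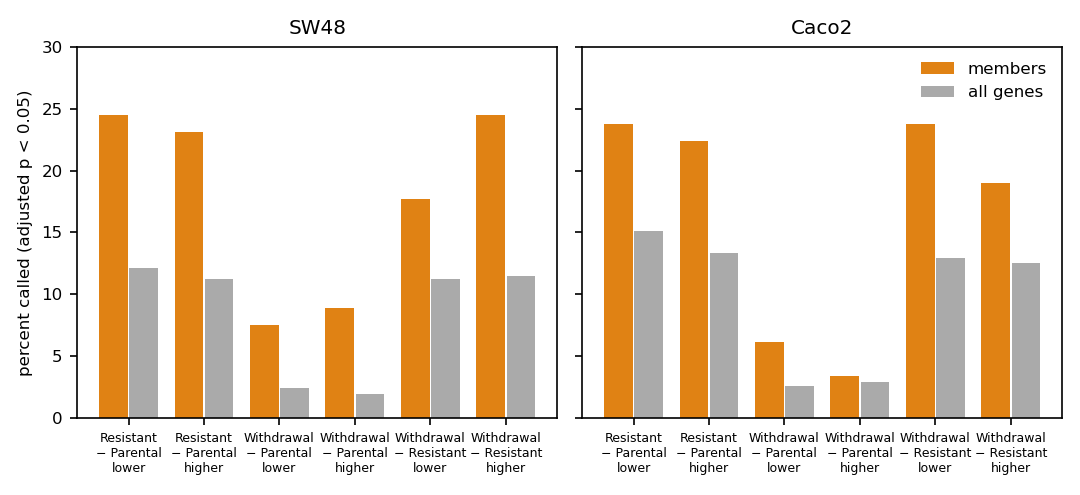
Percent of the 147 members (orange) and of all 17687 genes (grey) called lower or higher at an adjusted p under 0.05 (y axis) in each contrast of SW48 (left) and Caco2 (right). For Resistant minus Parental the lower and higher bars of the members are nearly level, 24.5% and 23.1% in SW48 and 23.8% and 22.4% in Caco2.

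After withdrawal, few members stood apart from Parental cells in these lines. In SW48 11 were lower (7.48%, against 2.37% of all genes) and 13 higher (8.84%, against 1.95%), and in Caco2 9 were lower (6.12%, against 2.6%) and 5 higher (3.4%, against 2.86%). In either direction this makes 24 members in SW48 (16.3%, against 4.32% of all genes) and 14 in Caco2 (9.52%, against 5.46%). Among the 8765 genes at the minimum LIM1215 Withdrawal level, 3.74% were lower and 3.16% higher in SW48. In Caco2 3.48% of those genes were lower and 3.48% higher, near the members' share of higher genes there. The count of members lower in SW48 was 6 without Parental replicate 1 or without Withdrawal replicate 1 and 7 without Parental replicate 2, that of members higher in SW48 was 8 without Parental replicate 2, and in Caco2 the counts of lower members were 5 without Parental replicate 2, Parental replicate 3 or Withdrawal replicate 2 and 4 without Withdrawal replicate 3. Without Resistant replicate 1 of Caco2, 8 members were higher there. Against Resistant cells, 36 members rose on withdrawal in SW48 (24.5%, against 11.5%) and 26 fell (17.7%, against 11.2%), and in Caco2 28 rose (19%, against 12.5%) and 35 fell (23.8%, against 12.9%). Among the 8765 genes, 19.1% rose and 17.8% fell on withdrawal in SW48, and 17.5% rose and 17.2% fell in Caco2. The members' share of falls in SW48 and of rises in Caco2 lay near these values.

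The full LIM1215 order, lower than Parental in the Resistant state and higher after withdrawal, was called for 2 members in SW48 (1.36%, against 0.283% of all genes) and for 0 in Caco2 (against 0.503%). The 2 members were PRSS12 and SHB. PRSS12, the serine protease neurotrypsin, read 3.92, 3.00 and 3.13 on Resistant, 9.39, 8.90 and 9.39 on Withdrawal and 7.99, 8.14 and 8.45 on Parental SW48 arrays, with no overlap between the 3 states. It fell by 4.84 in Resistant cells (SE 0.229, adjusted p = 1.26e-10 in limma), at least 2.16-fold to below background, and was 1.03 higher in Withdrawal than in Parental cells (SE 0.229, adjusted p = 0.016). In LIM1215 it differed by -0.57 and 1.52, and in Caco2 it was below background in all states. SHB, an adaptor of tyrosine kinase receptors, read 11.13, 11.14 and 11.19 on Resistant, 12.17, 12.46 and 12.16 on Withdrawal and 11.62, 11.77 and 11.69 on Parental SW48 arrays. Its changes from Parental SW48 cells were -0.53 (SE 0.137, adjusted p = 0.00838) and 0.57 (SE 0.137, adjusted p = 0.0251). In Caco2 SHB instead rose in Resistant cells, by 0.42 (SE 0.137, adjusted p = 0.03). Both calls on Withdrawal against Parental SW48 cells were lost in some alternatives, whose number is given in the closing section. Counted by arrays alone, 5 members in SW48 (3.4%, against 1.75% of all genes) and 4 in Caco2 (2.72%, against 1.64%) had every Resistant array below and every Withdrawal array above the Parental arrays.

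A larger number fell in Resistant cells and rose again on withdrawal. Lower in Resistant than Parental and higher in Withdrawal than Resistant were 28 members in SW48 (19%, against 8.31% of all genes) and 24 in Caco2 (16.3%, against 9.52%), and 26 and 24 of these had no called rise above Parental cells. The reverse course, up and then down, was called for 22 members in SW48 (15%, against 7.77%) and 28 in Caco2 (19%, against 9.89%). The 2 contrasts of each course share the Resistant arrays. For the courses and for calls in both lines, no share was taken among the 8765 genes at the minimum LIM1215 Withdrawal level. Of the members' calls on Withdrawal against Resistant cells, 24 of 63 in Caco2 and 6 of 62 in SW48 had both groups at background. In Caco2 these include SERPINE2 and CLIP4 in the first course and CEMIP and TRIM29 in the reverse one. Members that fell in Resistant cells of both lines numbered 7 (4.76%, against 3.21% of all genes): EFNB2, ETV5, DUSP6, HK2, SMOX, a polyamine oxidase, BNIP2 and LIAS, which makes lipoic acid. Those that rose in both numbered 10 (6.8%, against 3.37%), among them LIF, NR4A1, CDKN1A and ERRFI1, with TNS4 and PLAUR, which were below background in Caco2. Opposite calls were made for 15: 6 fell in SW48 and rose in Caco2 (4.08%, against 1.53%), and 9 rose in SW48 and fell in Caco2 (6.12%, against 1.7%).

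EFNB2, ETV5, DUSP6, HK2, SMOX and BNIP2 fell in Resistant cells of both lines and rose on withdrawal in both. No share over all genes was taken for this count of 6. Values follow for EFNB2, ETV5 and DUSP6. EFNB2 read 9.96, 10.31 and 9.65 on Resistant, 11.98, 12.31 and 12.27 on Withdrawal and 12.91, 12.76 and 12.83 on Parental SW48 arrays. In Caco2 it read 9.74, 9.88 and 9.66 on Resistant, 11.33, 11.30 and 11.18 on Withdrawal and 11.74, 11.86 and 11.84 on Parental arrays. It fell by 2.86 in Resistant SW48 (SE 0.145, adjusted p = 2.49e-10) and by 2.05 in Resistant Caco2 cells (SE 0.145, adjusted p = 9.32e-09). Where Withdrawal LIM1215 cells stood 2.88 above Parental replicates 1 and 2, Withdrawal cells stayed 0.65 below Parental in SW48 (adjusted p = 0.0168) and 0.54 below in Caco2 (adjusted p = 0.0359). ETV5 fell by 1.70 in Resistant SW48 cells (SE 0.123, adjusted p = 2.67e-08) and by 1.45 in Resistant Caco2 cells (SE 0.123, adjusted p = 1.01e-07), rose by 1.83 and 0.98 on withdrawal, and ended 0.47 below Parental in Caco2 (adjusted p = 0.0339). DUSP6 fell by 0.59 in SW48 (SE 0.121, adjusted p = 0.00162) and by 0.86 in Caco2 (SE 0.121, adjusted p = 3.33e-05), and rose on withdrawal by 0.75 (adjusted p = 0.000202) and 0.45 (adjusted p = 0.0103). Its level in Withdrawal against Parental cells did not pass in either line (0.16 in SW48 and -0.41 in Caco2).

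**Figure D4:**
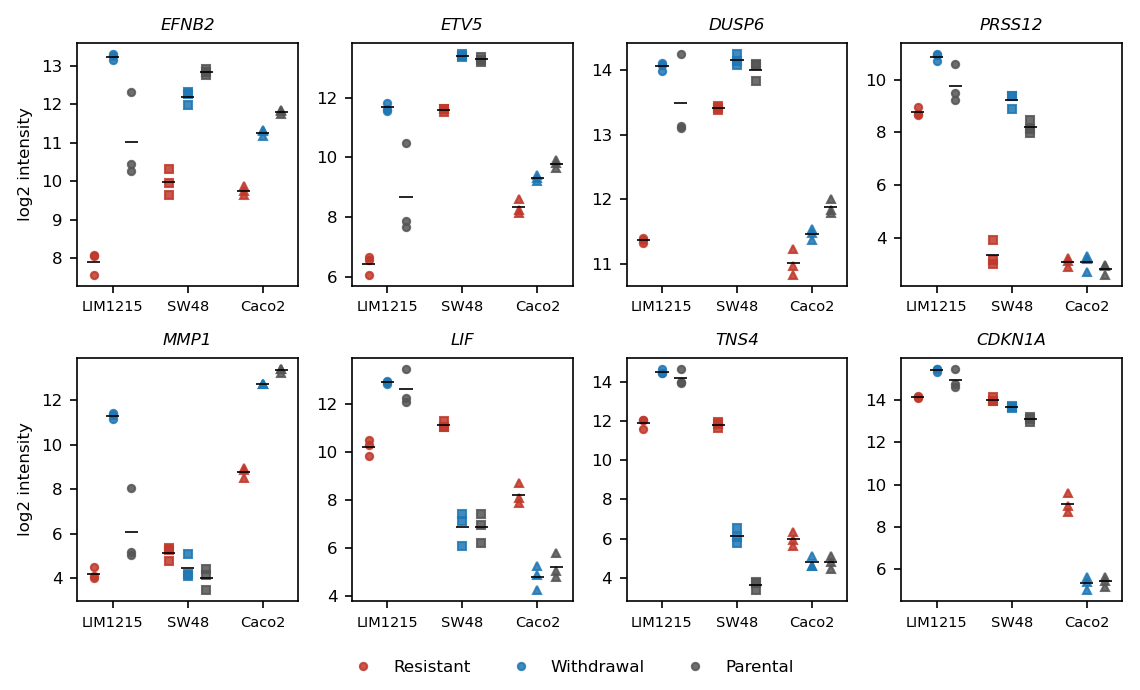
log2 intensity (y axes, on separate scales) of 8 members on each array of LIM1215 (circles), SW48 (squares) and Caco2 (triangles), in Resistant (red), Withdrawal (blue) and Parental (grey) cells. Black bars are means of 3 arrays, for LIM1215 Parental cells with replicate 3 included. EFNB2 is lowest in Resistant cells of each line, and TNS4 is highest in Resistant cells of SW48 and Caco2 but lowest there in LIM1215.

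**Figure D5:**
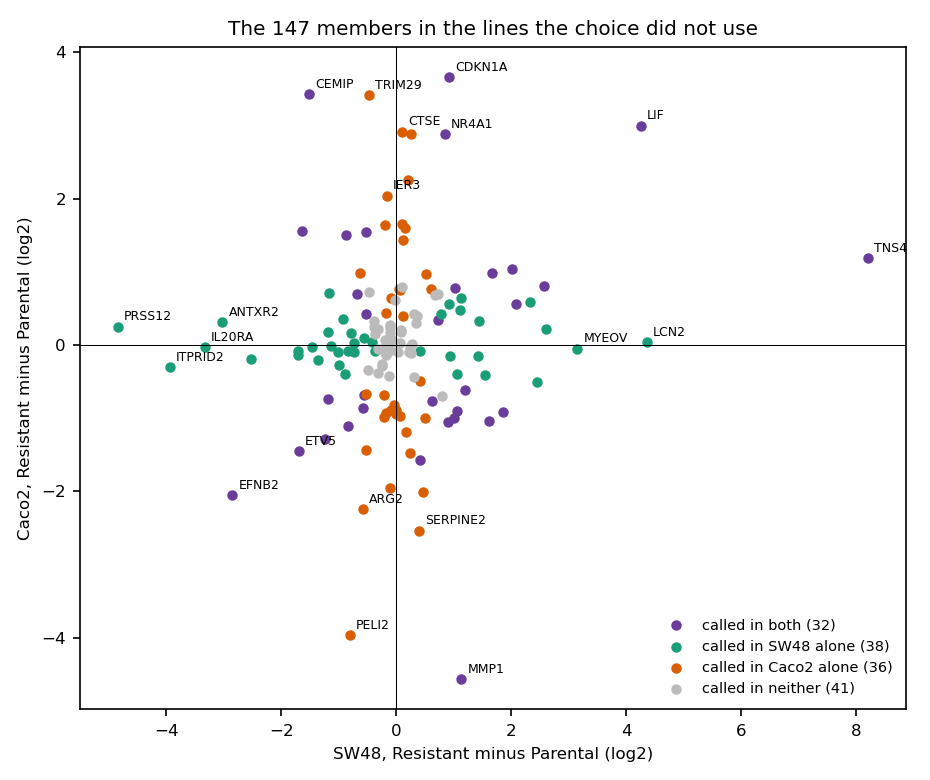
Change of each of the 147 members in Resistant against Parental cells (log2) in SW48 (x axis) and Caco2 (y axis), coloured by the line in which it was called. TNS4 lies farthest right (8.20 in SW48) and MMP1 lowest (-4.56 in Caco2), and 32 members were called in both lines.

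In SW48 the largest changes went in both directions. In Resistant SW48 cells the lowest log2 differences after PRSS12 were those of ITPRID2 (-3.94, SE 0.239), IL20RA, a receptor chain for interleukin-20 cytokines (-3.33, SE 0.21), ANTXR2, an anthrax toxin receptor (-3.03, SE 0.273), and EFNB2. The highest were those of TNS4 (8.20, SE 0.227, at least 34.1-fold), LCN2 (4.35, SE 0.167, 20.5-fold), LIF (4.25, SE 0.376), MYEOV (3.14, SE 0.265) and ARHGAP29 (2.61, SE 0.25), all with a limma adjusted p of at most 8.16e-07. The Resistant group was at background for ITPRID2 (at least 2.74-fold lower), ANTXR2 (at least 1.87-fold) and IL20RA (at least 1.14-fold), and the Parental group for MYEOV (at least 2.96-fold higher) and ARHGAP29 (at least 3.01-fold), so the sizes of these changes have no order. EFNB2, above background in both groups, was 7.26-fold lower. LCN2 read 13.21, 13.46 and 13.01 on Resistant, 11.08, 10.81 and 10.73 on Withdrawal and 8.64, 8.84 and 9.13 on Parental SW48 arrays, and so stayed 2.00 higher after withdrawal (SE 0.167, adjusted p = 2.76e-06). It was below background in Caco2. TNS4 read 11.95, 11.86 and 11.64 on Resistant, 6.09, 5.80 and 6.55 on Withdrawal and 3.71, 3.76 and 3.37 on Parental SW48 arrays, with the Withdrawal and Parental groups below background. It was highest in the Resistant state in SW48 and lowest in it in LIM1215. PLAUR read 10.45, 10.38 and 10.60 on Resistant, 10.42, 10.46 and 10.21 on Withdrawal and 8.30, 8.65 and 8.46 on Parental SW48 arrays. Its rise in Resistant SW48 cells was therefore still there after withdrawal (1.90, SE 0.325, adjusted p = 0.00279). IGFBP3 also stayed higher after withdrawal (1.45, SE 0.167, adjusted p = 5.91e-05). IGFL2, a secreted member of a small growth-factor-like family (-2.02, SE 0.141, adjusted p = 6.08e-07), ITPRID2 (-1.93, SE 0.239), CEMIP, which degrades hyaluronan (-1.34, SE 0.288), and IL20RA (-1.16, SE 0.21) ended lower than Parental cells, as did ERRFI1 (-0.86, SE 0.0967), with the Withdrawal group at background for ITPRID2 and IL20RA. On withdrawal from the Resistant state PRSS12 rose by 5.88, ANTXR2 by 2.56, EFNB2 by 2.21 and SERPINB8, a protease inhibitor, by 2.18, while TNS4 fell by 5.67, LIF by 4.24, MYEOV by 2.62, ARHGAP29 by 2.51 and LCN2 by 2.35. Of these, PRSS12, ANTXR2, TNS4, LIF, MYEOV and ARHGAP29 were at background in 1 of the 2 groups.

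In Caco2 the collagenase MMP1 had the largest fall. It read 8.88, 8.97 and 8.49 on Resistant, 12.75, 12.73 and 12.75 on Withdrawal and 13.22, 13.40 and 13.41 on Parental arrays, a fall of 4.56 in Resistant cells (SE 0.253, adjusted p = 4.84e-10, 23.6-fold) and a rise of 3.96 on withdrawal (SE 0.253, adjusted p = 3.48e-09). PELI2, a ubiquitin ligase of interleukin-1 signalling (-3.96, SE 0.446), SERPINE2 (-2.53, SE 0.3, below background in both groups), ARG2 (-2.24, SE 0.206) and EFNB2 followed by log2 difference, but the Resistant group was at background for PELI2 (at least 1.05-fold lower) and ARG2 (at least 3.91-fold lower). The highest log2 differences were those of CDKN1A (3.66, SE 0.2, adjusted p = 3.98e-10, at least 2.53-fold), CEMIP (3.42, SE 0.288), TRIM29 (3.41, SE 0.271), LIF (3.00, SE 0.376) and CTSE (2.92, SE 0.246), of which CEMIP, TRIM29 and CTSE were below background in both groups and LIF (at least 1.38-fold higher) in Parental cells. CDKN1A read 8.69, 9.59 and 8.99 on Resistant, 5.66, 5.03 and 5.41 on Withdrawal and 5.47, 5.16 and 5.66 on Parental Caco2 arrays, and it fell by 3.73 on withdrawal. NR4A1, an immediate-early nuclear receptor, rose by 2.88 in Resistant cells (SE 0.105) and fell by 2.32 on withdrawal. After withdrawal PDP1, which activates pyruvate dehydrogenase (1.28, SE 0.131, adjusted p = 1e-05), CYP3A5 (1.12, SE 0.146, adjusted p = 0.000144) and NR4A1 (0.56, SE 0.105, adjusted p = 0.00412) stood above Parental Caco2 cells, while PLK2 (-1.24, SE 0.189, adjusted p = 0.000685) and FILIP1L (-1.10, SE 0.233, adjusted p = 0.00882) stood below them. ANTXR2 (1.38) and LINC01559 (0.68) were called higher, and AVPI1 (-1.04) and L3MBTL3 (-0.93) lower, with both groups below background, and PELI2 lower (-1.89, SE 0.446, adjusted p = 0.0183) with the Withdrawal group at background and no bound on its fold. On withdrawal from the Resistant state CLIP4 (2.87), SERPINE2 (2.51), PELI2 (2.08) and UNC5B (2.06) rose the most after MMP1, and LIF (-3.43), CEMIP (-2.96) and TRIM29 (-2.93) fell the most after CDKN1A. For CLIP4, SERPINE2, PELI2, CEMIP and TRIM29 both groups were below background there, and for UNC5B, LIF and CDKN1A 1 of them was.

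Of the 25 members with the largest difference in LIM1215, 13 (52%, against 50% of all genes) were above background in at least 1 state of SW48 and 12 (48%, against 48.3%) in at least 1 state of Caco2. IGFBP1, CTSE, SPRR2D, TREML2, IL33, IL1B, CALB2 and ANKRD22 were below background in every state of both lines. In Resistant against Parental cells, 4 of the 25 fell and 7 rose in SW48, where 12.1% of all genes were called lower and 11.2% higher, and 7 fell and 5 rose in Caco2 (against 15.1% and 13.3%). HBEGF did not pass in Resistant cells of either line and was 0.85 higher in Withdrawal than in Parental SW48 cells (SE 0.185, adjusted p = 0.0145), with 8.70, 8.998 and 9.47 against 8.25, 8.01 and 8.37. EREG was below background in Caco2, and read 14.09, 13.95 and 14.15 on Resistant, 14.17, 14.13 and 14.13 on Withdrawal and 14.35, 14.33 and 14.27 on Parental SW48 arrays and did not pass in any SW48 contrast.

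The ERK feedback list also had calls in both directions. Of its 28 genes, 9 fell and 7 rose in Resistant SW48 cells (median change -0.08, against 0.00 over all genes) and 11 fell and 11 rose in Resistant Caco2 cells (median 0.17, against -0.03), where 12.1% of all genes were called lower and 11.2% higher in SW48, and 15.1% and 13.3% in Caco2. Of its 8 members, ETV5 and DUSP6 fell and DUSP4 and SPRY4 rose in SW48, while ETV5, ETV4, DUSP4, DUSP6 and SPRY4 fell and IER3 rose in Caco2. ETV4 and DUSP4 were below background in both of these Caco2 groups, so their falls there set no fold. PHLDA1 did not pass in Resistant cells of either line, with values of 16.34, 16.33 and 16.31 on Resistant and 16.49, 16.49 and 16.60 on Parental SW48 arrays. Among the 3 NK receptor ligands, PVR fell in Resistant SW48 cells (-1.02, SE 0.107, adjusted p = 2.25e-06) and rose on withdrawal (1.04, SE 0.107, adjusted p = 1.9e-06), and ULBP2 (-1.48, SE 0.223, adjusted p = 6.9e-05, with the Resistant group at background) and RAET1L (-0.89, SE 0.292, adjusted p = 0.0304, with both groups at background) fell in Resistant Caco2 cells. Of the 4 p53 targets, CDKN1A and GDF15 rose in Resistant cells of both lines, and PLK2 rose in SW48 and fell in Caco2. The change from Parental to Resistant cells differed between SW48 and Caco2 for 81 of the 147 members (55.1%, against 27% of all genes), by the interaction term of the same fit. Its share among genes at the minimum LIM1215 Withdrawal level was not taken.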

How the data were processed

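Per the labels' protocols, the authors labelled 250 ng of total RNA with the Affymetrix WT PLUS kit. The deposited value of each probe set reads as a log2 intensity; software and normalization are not stated in these sources, so levels were not compared between lines. Of 21448 transcript probe sets, 17709 carried 1 gene symbol and 3739 none in the platform annotation; the brightest probe set stood for each of 20 genes with several. The number of arrays limits the precision. limma 3.58.1 (R 4.3.3; lmFit, eBayes) was fitted to the 18 SW48 and Caco2 arrays with a mean per line and state and tested on simulated data; two-sided p-values were adjusted (Benjamini-Hochberg) over 17687 genes per contrast. Members and gene lists were chosen with earlier results of these data known. Genes were named by a rule: the 25 largest Withdrawal minus Resistant differences in LIM1215, members on a list, the 5 largest non-overlapping rises and falls per contrast, members with the LIM1215 order in another line, and the 5 genes on each side of a threshold. ERRFI1, PVR, EREG and other listed members fall under the list part. Other fits, filters, scalings and left-out arrays were tried. Promoters are RefSeq's (GRCh38.p14).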

Additional observations from a re-analysis of the deposited data

Results flagged for a closer look

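The change of 52 gene and contrast pairs among the named members differed between SW48 and Caco2 by the interaction term of the limma fit (adjusted p under 0.05 over all genes). Values are the SW48 change minus the Caco2 change on the log2 scale, and members below background in 1 or both lines are among them.

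For Resistant against Parental cells, the difference was positive for TNS4 (7.02), MMP1 (5.69), LCN2 (4.31), MYEOV (3.19), PELI2 (3.15), SERPINE2 (2.93), ARHGAP29 (2.38) and ARG2 (1.65). It was negative for PRSS12 (-5.10), CEMIP (-4.94), TRIM29 (-3.89), ITPRID2 (-3.65), ANTXR2 (-3.34), IL20RA (-3.31), CTSE (-2.82), CDKN1A (-2.74), SHB (-0.95) and EFNB2 (-0.81). EFNB2 fell in both lines and CDKN1A rose in both, so for these the size differed and not the direction.

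For Withdrawal against Parental cells, the difference was positive for TNS4 (2.54), PELI2 (2.50), PLAUR (2.27), IGFBP3 (2.03), LCN2 (2.00), AVPI1 (1.85), APOBEC3B (1.81), PLK2 (1.35) and FILIP1L (1.34). It was negative for IGFL2 (-2.50), ITPRID2 (-1.98), ANTXR2 (-1.85), CEMIP (-1.81), TRIM29 (-1.52), IL20RA (-1.05), CYP3A5 (-0.80) and PDP1 (-0.72).

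For Withdrawal against Resistant cells, the difference was positive for PRSS12 (5.90), CDKN1A (3.37), CEMIP (3.13), TRIM29 (2.38), SERPINB8 (2.31), IL20RA (2.26), NR4A1 (1.85), ANTXR2 (1.49) and EFNB2 (0.70). It was negative for MMP1 (-4.63), TNS4 (-4.48), MYEOV (-2.80), CLIP4 (-2.74), SERPINE2 (-2.74), LCN2 (-2.32), ARHGAP29 (-2.30) and UNC5B (-1.93).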

How the results depend on the processing

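The number of members was 231 with all 3 Parental arrays in the mean and 46 with differences of at least 1 each way, and lay between 137 and 152 when each array was left out in turn. Members lower in Withdrawal than Parental SW48 cells numbered 7 in the fit to all 27 arrays and 7 in the fit to the line's 9 arrays. In Caco2, members lower in Withdrawal than Parental cells numbered 14 in the fit to 26 arrays without LIM1215 Parental replicate 3, and members higher numbered 9 in that fit, 8 with a filter on dim genes and 8 with a trended robust prior. With only members above background in the line, an alternative chosen after seeing the data, 20 rose in Resistant Caco2 cells, 3 were higher in Withdrawal than Parental and 20 fell on withdrawal; leaving out the members on 4 signalling lists was also added then. The cause was not tested, except that fewer members enter the filtered counts.

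With each array left out in turn, members lower and higher in Resistant against Parental cells numbered 31 to 37 and 30 to 37 in SW48, and 31 to 36 and 24 to 36 in Caco2. For Withdrawal against Parental cells they numbered 6 to 11 and 8 to 14 in SW48, and 4 to 13 and 4 to 8 in Caco2. For Withdrawal against Resistant cells they numbered 24 to 27 and 32 to 38 in SW48, and 28 to 36 and 24 to 29 in Caco2.

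Arrays with the same replicate number did not deviate together (r of -0.041 to 0.075 over 27 pairs), so the numbers were not taken to pair samples. With the replicate block, the lower and higher counts were 35 and 33, 8 and 12, and 25 and 38 in SW48, and 34 and 33, 6 and 6, and 35 and 28 in Caco2, for Resistant against Parental, Withdrawal against Parental and Withdrawal against Resistant cells in that order.

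For 63 pairs of a named member and a contrast, 1517 of 1566 values under an alternative kept their direction and their side of the threshold, 49 lost the call and 0 changed sign. The lost calls concerned Withdrawal against Parental cells: PRSS12 (5 alternatives), SHB (4), TRIM29 (13) and CEMIP (1) in SW48, and LINC01559 (10), AVPI1 (5), L3MBTL3 (5), PELI2 (4) and NR4A1 (2) in Caco2. Signal over background limits what these arrays can show, since a difference between groups below background sets no fold.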
